A study of Drosophila melanogaster with 48 samples.

Results

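The effect of diet on the fat body transcriptome was examined at the end of the night, in the 12 of 48 libraries taken at ZT20, ZT22 and ZT24. Zeitgeber time (ZT) counts hours after lights on, so ZT24 is the moment at which the lights return. The 12 libraries are all those labelled with these times, and they form 6 pairs, each with 1 library per diet at the same time and replicate number. Control flies ate food with 15% sucrose and yeast, and restricted flies ate food with 5%. All were mated w1118 females, about 3 days old when the diet began, held on it for 5 days at 25 °C under 12 h of light and 12 h of dark. Each library came from the abdomens of about 10 pooled flies, dissected as fat body with the attached oenocytes and epidermis after intestine, ovaries and Malpighian tubules had been removed. The 3 groups per diet (1 per time) had 2 libraries each. The design text calls these biological replicates, and whether a replicate number marks a shared cage or day is not given in the sources used here.

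The insect fat body stores fat and glycogen, secretes lipoproteins and yolk, and senses dietary sugar and amino acids through insulin and TOR signalling. It also runs its own circadian clock, a feedback loop in which CLOCK and CYCLE activate period and timeless, whose proteins then repress them. In the late night period and timeless transcripts decline from their early-night peak while Clock and cryptochrome transcripts approach theirs. Oenocytes, which lie against the abdominal cuticle, make cuticular hydrocarbons. Yolk is made in the fat body and in ovarian follicle cells, whereas the eggshell is made in follicle cells alone: first the inner vitelline membrane, then the outer chorion.

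The 12 libraries held 7757393 to 28757061 estimated counts. The deepest was the ZT24 replicate 1 restricted library, followed by that of ZT22 with 21851216. Every other library held at most 13244329. Expression is given as CPM, the count of a gene scaled to library size after TMM correction. Differences are given as log2 fold changes of the 5% over the 15% diet. Values after ± are approximate standard errors, derived from the F statistic of the edgeR test. Fat body and oenocyte markers were abundant on both diets: the oenocyte list summed to 55742 to 93131 CPM in control libraries and 70310 to 107551 CPM in restricted ones, and the fat body list to 6316 to 15462 and 5903 to 17252 CPM. Markers of dissected organs were present as well. The eggshell list summed to 320.0 to 4345 CPM in control libraries and 10.4 to 1241 CPM in restricted libraries, the germline list to 522 to 1686 and 411 to 1251 CPM, the gut list to 15.2 to 833 and 33.1 to 322 CPM, and the Malpighian tubule list to 159 to 661 and 48.9 to 869 CPM. Ribosomal RNA rows held 0.222% to 1.26% of control counts (median 0.375%) and 1.02% to 1.92% of restricted counts (median 1.11%). The ZT20 replicate 1 control library alone made the ranges overlap, as the other control libraries held at most 0.397%. Mitochondrially encoded genes held 4.94% to 7.72% of counts in replicate 1 libraries and 2.32% to 2.60% in replicate 2 libraries, on either diet. The part of these organ, ribosomal RNA and mitochondrial shares in the results below was not tested. Alternatives named there left out ribosomal RNA and mitochondrial rows or added organ covariates.

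Few genes passed the test of a diet difference at the end of the night. Of 9252 genes tested, 4 passed an adjusted p of 0.05 (0.0432%), in edgeR's quasi-likelihood test with Benjamini-Hochberg adjustment, time as a factor and replicate as a block. The synaptic vesicle gene Syt1 rose on the restricted diet. The vitelline membrane genes Vm32E and Vml fell, and so did CG8303, which stands on the list of fatty acyl-CoA reductases. At an unadjusted p under 0.05, 350 genes were higher (3.78%) and 234 were lower (2.53%) on the restricted diet. These shares are the background for every list count at an unadjusted p below. The 6 restricted libraries lay wholly above the 6 control libraries for 21 genes (0.227%) and wholly below them for 6 (0.0649%). Of the 9252 genes, 226 were higher and 173 were lower on the restricted diet in all 6 pairs. Many genes named below were picked by p or after their values were seen, so their agreement over the 6 pairs is partly built in. Over all genes tested, the median size of the log2 fold change was 0.12 and the median standard error was 0.15. DESeq2 on the same genes and design called 47, of which 20 were higher and 27 lower. These held the 4 genes above, 9 more eggshell genes, UQCR-11, BomS6 and Cth of other lists, 7 rows of ribosomal RNA, all higher, and 24 genes in no list.

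**Figure D1:**
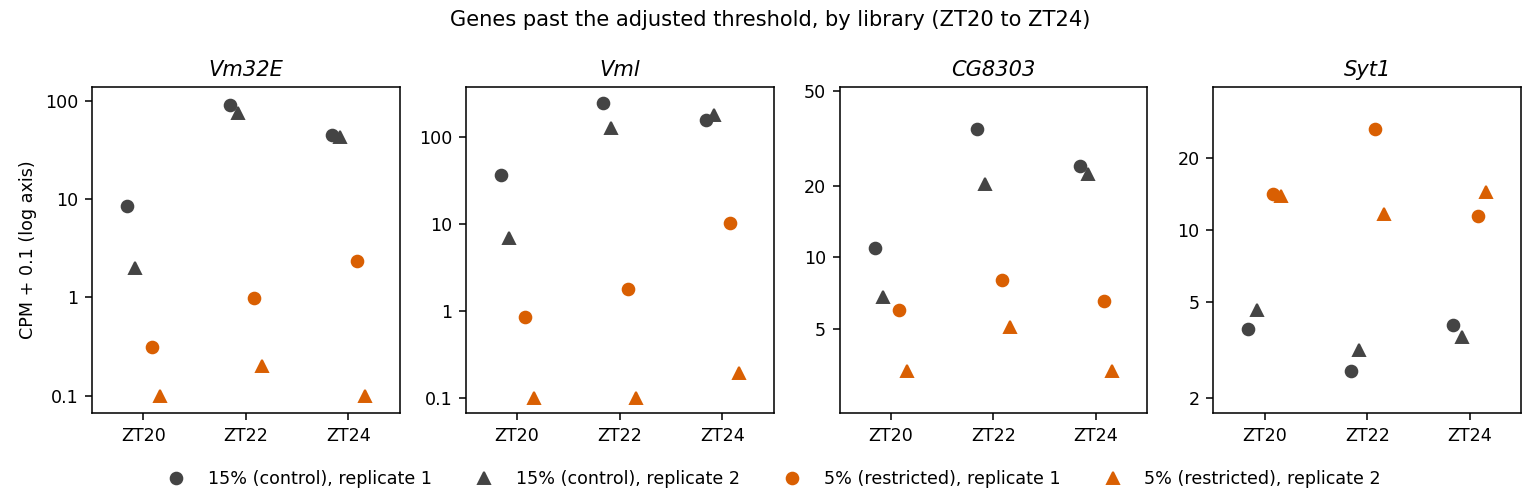
CPM plus 0.1 (log axis) of the 4 genes past the adjusted threshold at ZT20, ZT22 and ZT24, with 1 point per library, dark grey for the 15% and orange for the 5% diet, circles for replicate 1 and triangles for replicate 2. The orange points of Vm32E, Vml and CG8303 lie below the grey points of the same time, and those of Syt1 lie above all grey points, with 11.4 to 26.3 CPM against 2.49 to 4.53 CPM.

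Vm32E, which encodes a protein of the vitelline membrane, had 8.32 and 1.89 CPM at ZT20, 91.3 and 74.4 CPM at ZT22 and 45.1 and 42.4 CPM at ZT24 in control libraries of replicate 1 and 2. Restricted libraries had 0.214 and 0 CPM at ZT20, 0.876 and 0.102 CPM at ZT22 and 2.24 and 0 CPM at ZT24. The restricted library was the lower in all 6 pairs, and the groups overlapped only because the lowest control value lay under the highest restricted value. The log2 fold change was -6.29 ± 0.64 (n = 6 libraries per diet, edgeR adjusted p = 0.0193), resting on 2696 counts in control and 87 counts in restricted libraries. Of the 87, 64 came from the ZT24 and 20 from the ZT22 replicate 1 library, the deepest libraries. In bulk tissue, fewer cells of a type and less RNA per cell cannot be told apart. The call was lost without the ZT24 replicate 2 control library (edgeR adjusted p = 0.095), the ZT20 replicate 2 restricted library (0.093) or the ZT22 replicate 2 restricted library (0.055). It was also lost with replicate 1 alone (0.459), without any 1 of the 3 times (0.064 to 0.178) and in the fit of all 48 libraries (0.340).

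Vml, a second vitelline membrane protein gene, had 36.3 and 6.69 CPM at ZT20, 248 and 126 CPM at ZT22 and 156 and 177 CPM at ZT24 in control libraries. In restricted libraries it had 0.749 and 0 CPM, 1.66 and 0 CPM, and 10.2 and 0.0917 CPM at the same times. Again every restricted library lay below its paired control library, and the replicate 2 restricted libraries were at or near 0. The log2 fold change was -6.73 ± 0.81 (n = 6 per diet, edgeR adjusted p = 0.0304), from 7598 control and 338 restricted counts. Of the 338, 292 came from the ZT24 and 38 from the ZT22 replicate 1 library. With 1 library left out at a time the log2 fold change stayed between -7.70 and -6.33, while the adjusted p ranged up from 0.0197 as far as 0.120. Vml passed without the ZT22 replicate 2 control, the ZT24 replicate 1 control or the ZT24 replicate 1 restricted library, and missed the threshold without any 1 of the other 9. It was also lost without the replicate block (edgeR adjusted p = 0.214), with replicate 1 alone (0.459), without any 1 of the 3 times (0.110 to 0.392), in the fit of all 48 libraries (0.201) and at a minimum fold of 1.5 (0.0507).

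Both genes stand on the eggshell list, whose 23 genes were all tested. The list's median log2 fold change was -3.84, beside -0.00 over all genes. Of the 23 genes, 2 fell at the adjusted threshold, 14 were lower and 1 was higher at an unadjusted p under 0.05, and the other 8 passed neither. Among all genes, 2.53% were lower and 3.78% higher at that p. The 3 eggshell genes with wholly separate groups were all lower on the restricted diet, beside 0.0649% of all genes. DESeq2 called 11 of the 23, all lower. The list's median was -3.14 in replicate 1 and -4.79 in replicate 2 libraries, and -2.23 at ZT20, -7.49 at ZT22 and -4.48 at ZT24. Since ovaries were cut away in the dissection, the list also measures how much ovarian RNA each library held, and the part of that in these values was not tested.

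All 7 vitelline membrane genes were lower in both replicate series, and 6 of them were lower in all 6 pairs, beside 173 of all 9252 genes. The summed level of the 7 genes ran from 162 to 1248 CPM in control libraries (median 941) and from 0.502 to 83.6 CPM in restricted libraries (median 41.8), so that the summed levels of the groups did not overlap. Their median log2 fold change was -4.84, and it was -3.61 in replicate 1 and -6.81 in replicate 2 libraries. Beyond Vm32E and Vml none of the 7 passed the adjusted threshold. Vm34Ca had 23.1 to 296 CPM in control libraries (median 140) and 0.1 to 8.05 CPM in restricted libraries (median 6.01), with no overlap and a log2 fold change of -4.84 ± 0.80 (edgeR adjusted p = 0.211). Vm26Aa, one of the major vitelline membrane proteins, had 63.6 to 525 CPM (median 341) and 0 to 42.3 CPM (median 19.2), likewise without overlap (-4.28 ± 1.04, adjusted p = 0.529). The log2 fold changes were -6.08 ± 0.91 for Vm26Ac, -3.84 ± 0.84 for Vm26Ab and -3.31 ± 0.62 for psd (palisade), which is needed for vitelline membrane assembly. Apart from Vm32E, Vml, Vm26Ac and Vm34Ca, eggshell genes are named here after their values were seen.

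Chorion genes, which follicle cells switch on later than vitelline membrane genes, did not share a direction. Of 9 chorion genes, 7 were lower on the restricted diet in the fit of all 12 libraries, 5 in replicate 1 and 8 in replicate 2, and 3 were lower at an unadjusted p under 0.05. Their summed level spanned 9.80 to 2782 CPM in control and 0.733 to 891 CPM in restricted libraries, with wide overlap. The 3 were Cp16 (-7.54 ± 1.86), Cp18 (-7.09 ± 1.74) and Cp19 (-5.69 ± 1.91), with edgeR adjusted p between 0.533 and 0.664. Cp19 had 0.566 to 531 CPM in control libraries (median 110) and 0 to 12.8 CPM in restricted libraries (median 0.470). At the other end, Cp7Fb and Cp7Fc had 278 and 209 CPM in the ZT20 replicate 1 restricted library and 169 and 131 CPM in that of ZT24. Both stayed at or under 6.29 CPM in every control library. Their log2 fold changes were 5.02 and 8.11 in replicate 1 but -2.94 and -2.94 in replicate 2, and the pooled values of 2.69 ± 2.68 and 3.15 ± 2.68 were within their error (edgeR adjusted p = 0.925 and 0.900).

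**Figure D2:**
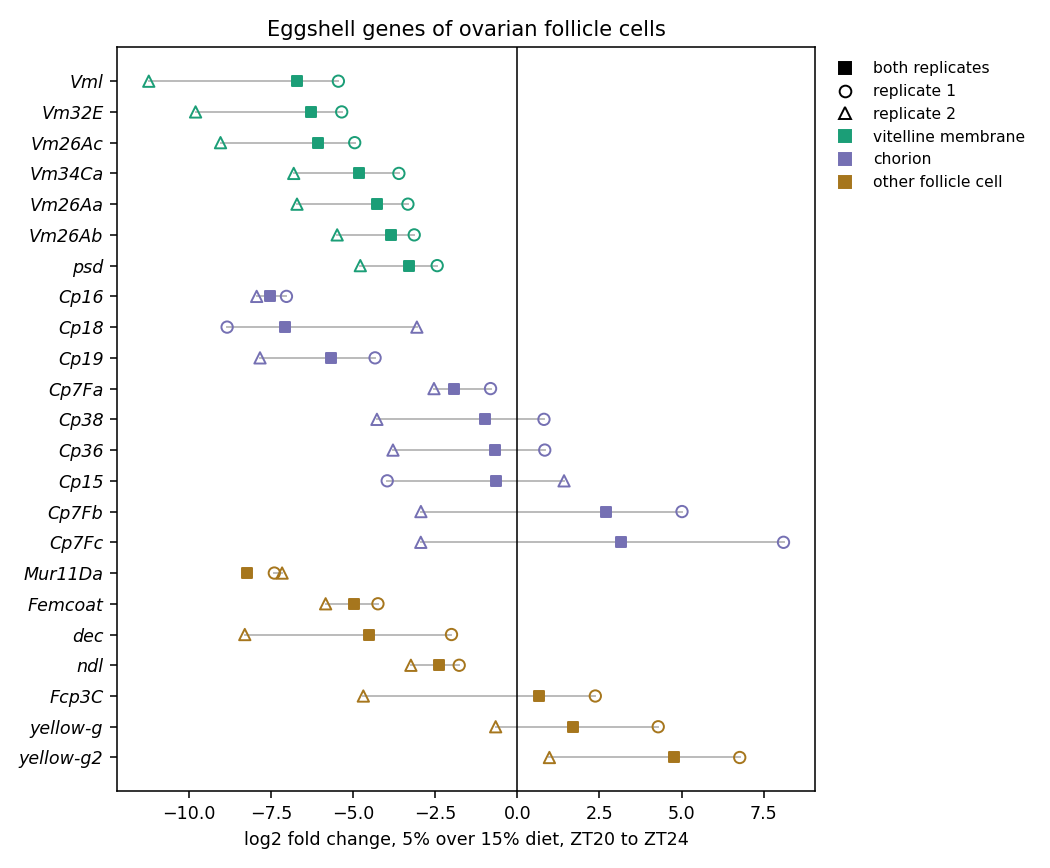
Log2 fold change (5% over 15% diet) of the 23 eggshell genes, grouped by role; filled squares give the fit of all 12 libraries, open circles replicate 1 and open triangles replicate 2. All 7 vitelline membrane genes lie left of 0 in both series, and of the chorion genes 5 do in replicate 1 and 8 in replicate 2.

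Other follicle cell genes were as divided. ndl (nudel), a protease that acts in patterning the embryo and hardening the eggshell, had 15.6 to 85.5 CPM in control libraries (median 49.9) and 1.30 to 16.5 CPM in restricted libraries (median 10.7). It was lower in all 6 pairs (-2.39 ± 0.41, edgeR adjusted p = 0.218). dec, which encodes precursor proteins of the chorion and vitelline membrane, had 17.5 to 830 CPM and 0.502 to 196 CPM, with a log2 fold change of -2.01 in replicate 1 and -8.31 in replicate 2. yellow-g2, a yellow family gene of follicle cells, was the single list member higher at an unadjusted p under 0.05 (4.78 ± 1.41, edgeR adjusted p = 0.645). Its level was 0.101 to 0.616 CPM in control libraries, and in restricted libraries it was 61.9 and 68.9 CPM at ZT20 and ZT24 of replicate 1 and at most 1.81 CPM in the other 4. The same 2 restricted libraries held the high Cp7Fb and Cp7Fc values.

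Germline genes of the ovary had a median nearer to 0 than the eggshell list, but 19 of the 20 tested lay below 0. Over all genes 4671 of 9252 lay below 0. The median log2 fold change was -0.50 (-0.13 in replicate 1, -0.61 in replicate 2). By time it was -0.25 at ZT20, -0.04 at ZT22 and -1.10 at ZT24. None of the 20 passed in edgeR or DESeq2, and 2 were lower at an unadjusted p under 0.05, beside 2.53% of all genes. The 2 were otu, needed for oogenesis (-1.04 ± 0.45, edgeR adjusted p = 0.771), and exu, which localises maternal RNA in the oocyte (-0.97 ± 0.40, adjusted p = 0.744). exu had 25.5 to 104 CPM (median 80.7) on the control diet and 15.4 to 58.6 CPM (median 45.7) on the restricted diet. When the mean log2 CPM of ovary genes (eggshell and germline together) and that of gut genes entered the fit, Vm32E, Vml and Vm26Ac passed and the log2 fold changes of otu and exu were 0.25 and 0.06. The ovary covariate contains the eggshell and germline genes themselves, so this fit does not measure their change apart from ovarian RNA.

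Syt1, the calcium sensor of synaptic vesicle release, had 3.76 and 4.53 CPM at ZT20, 2.49 and 3.06 CPM at ZT22 and 3.93 and 3.49 CPM at ZT24 in control libraries. Restricted libraries had 14.0 and 13.8 CPM, 26.3 and 11.6 CPM, and 11.4 and 14.3 CPM. The groups were fully separated, at each time and in each series. The difference was 2.08 ± 0.25 on the log2 scale, or 4.23-fold (n = 6 per diet, edgeR adjusted p = 0.0304). Replicate 1 gave 2.24 and replicate 2 gave 1.85. Without single libraries it was 1.80 to 2.17, at adjusted p between 0.00261 and 0.117. Syt1 passed without the ZT22 or the ZT24 replicate 1 restricted library and missed the threshold without any 1 of the other 10. The call was also lost in either series alone (edgeR adjusted p = 0.459 and 0.1504), without ZT20 or ZT24 (0.283 and 0.765), in the fit of all 48 libraries (0.201), with the organ covariates (2.03, 0.295) and at a minimum fold of 1.5 (0.0835). limma on log2(TPM + 1) gave a smaller difference of 1.28 (adjusted p = 0.117).

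The 10 neuron markers tested all had log2 fold changes above 0, with a median of 0.52 (0.79 in replicate 1, 0.45 in replicate 2). Apart from Syt1, itself a member, none passed, and 3 more were higher at an unadjusted p under 0.05. Among all genes tested, 4581 of 9252 lay above 0 and 3.78% were higher at that p. The list was chosen with earlier results of these data known. Syt4, a synaptotagmin of postsynaptic vesicles, had 0.308 to 1.16 CPM on the control diet (median 0.451) and 0.733 to 2.89 CPM on the restricted diet (median 1.51). It was higher in all 6 pairs, by 1.38 ± 0.37 (edgeR adjusted p = 0.642). The values were 0.80 ± 0.29 for nSyb, the vesicle SNARE of synapses, and 0.50 ± 0.17 for cpx (complexin), which clamps vesicle fusion. The summed level of the 10 markers was 75.3 to 112 CPM in control and 82.5 to 185 CPM in restricted libraries. Within replicate 2 it was 75.3 to 81.6 against 82.5 to 94.8 CPM, and within replicate 1 it was 97.7 to 112 against 125 to 185 CPM.

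CG8303 had 10.9 and 6.69 CPM at ZT20, 34.6 and 20.3 CPM at ZT22 and 24.2 and 22.4 CPM at ZT24 on the control diet. On the restricted diet it had 5.89 and 3.21 CPM, 7.88 and 4.99 CPM, and 6.41 and 3.21 CPM. It was lower in all 6 pairs, and only the replicate 2 control library at ZT20 fell within the restricted range. The log2 fold change was -1.82 ± 0.23, a 3.54-fold difference (n = 6 per diet, edgeR adjusted p = 0.0340). Replicate 1 gave -1.66 and replicate 2 gave -1.98. Without each library in turn it lay between -1.98 and -1.67, with adjusted p from 0.0212 to 0.162. It passed without either replicate 1 library of ZT20 and missed the threshold without any 1 of the other 10. The call was also lost without the replicate block (edgeR adjusted p = 0.214), in either series alone (0.459 and 0.272), without any 1 of the 3 times (0.0720 to 0.765), in the fit of all 48 libraries (0.653), with limma on log2(TPM + 1) (0.117) and at a minimum fold of 1.5 (0.123). With both organ covariates in the fit it was -1.64 (edgeR adjusted p = 0.537). Of the 15 fatty acyl-CoA reductase genes tested, a family that makes fatty alcohols, CG8303 alone passed, and the list's median was 0.06.

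Among the 27 genes whose groups did not overlap, the first by p in either direction are named here after their values were seen. fmt had 48.0 to 84.2 CPM in control libraries (median 58.9) and 94.5 to 390.0 CPM in restricted libraries (median 130). It differed by 1.39 ± 0.24 (edgeR adjusted p = 0.220). Replicate 1 gave 1.70 and replicate 2 gave 1.01. AP-2mu, a clathrin adaptor subunit, had 39.0 to 43.9 CPM (median 41.9) against 32.5 to 35.6 CPM (median 32.8), a narrow but separated difference of -0.31 ± 0.06 (adjusted p = 0.355). After Syt1 and fmt, the next of the 21 higher genes by p were CG13101 (0.69 ± 0.13), NijA (0.53 ± 0.11), eIF4H1 (0.61 ± 0.13) and Appl, the amyloid precursor-like protein (1.21 ± 0.27), with edgeR adjusted p from 0.286 to 0.415. NijA encodes a ninjurin, a membrane protein of cell adhesion, and eIF4H1 a translation initiation factor. Appl had 0.913 to 2.39 CPM in control and 3.05 to 5.39 CPM in restricted libraries. Of the 6 lower genes, Vm34Ca, psd and Vm26Aa are vitelline membrane genes.

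No core clock gene passed the adjusted threshold in edgeR or DESeq2. Of the 8 genes tested, tim alone had an unadjusted p under 0.05, and the log2 fold changes ran from -0.10 to 0.35. tim (timeless) had 204 to 448 CPM in control libraries (median 371) and 330 to 588 CPM in restricted libraries (median 382), with a log2 fold change of 0.35 ± 0.13 (unadjusted p = 0.0235, edgeR adjusted p = 0.709). It was higher in 5 of 6 pairs, and the groups overlapped. Pdp1, an activator of Clk, had 0.33 ± 0.15 and cwo, a repressor of clock targets, had 0.18 ± 0.09, each higher in all 6 pairs with overlapping groups (edgeR adjusted p = 0.771 and 0.775).

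The remaining 5 clock genes had an unadjusted p of 0.309 or more. The log2 fold changes were -0.10 ± 0.16 for per (period, tim's partner), 0.01 ± 0.14 for vri, which represses Clk, -0.06 ± 0.23 for Clk, -0.08 ± 0.08 for cyc (cycle, Clk's partner) and -0.05 ± 0.17 for cry, the photoreceptor of the clock. The 95% confidence interval of the difference ran from -0.46 to 0.26 for per, from -0.57 to 0.45 for Clk and from -0.26 to 0.09 for cyc. tim and vri were lower at ZT24 than at ZT20 on both diets, which was not tested. tim had 416 and 422 CPM at ZT20 and 204 and 236 CPM at ZT24 in control libraries, and 588 and 555 CPM and 330 and 349 CPM in restricted libraries. vri had 105 and 128 CPM at ZT20 and 53.1 and 51.1 CPM at ZT24 on the control diet, and 103 and 152 CPM and 59.8 and 52.0 CPM on the restricted diet. Clk was higher at ZT24, with 11.7 and 15.0 CPM at ZT20 and 18.9 and 19.7 CPM at ZT24 on the control diet and 11.9 and 6.72 CPM and 25.9 and 23.3 CPM on the restricted diet. cry was likewise higher at ZT24 in each series and diet, with 53.8 to 117 CPM at ZT20 and 91.5 to 172 CPM at ZT24. cyc stayed between 32.3 and 42.9 CPM in all 12 libraries. Of 11 clock kinases, phosphatases and degradation factors none passed, none had an unadjusted p under 0.05, and the median was -0.01.

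**Figure D3:**
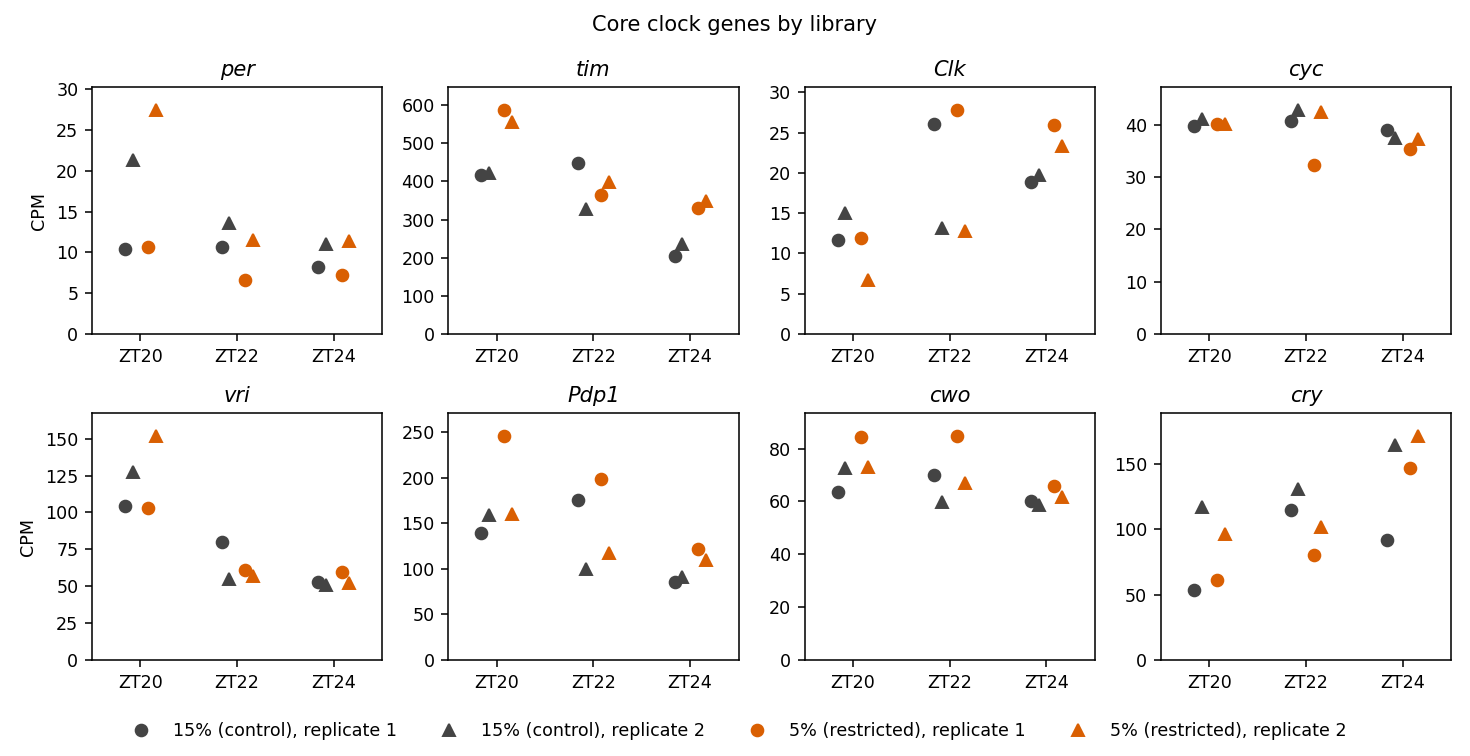
CPM of the 8 core clock genes at ZT20, ZT22 and ZT24, with 1 point per library, dark grey for the 15% and orange for the 5% diet, circles for replicate 1 and triangles for replicate 2. The diets overlap for every gene, and tim declines from ZT20 (416 to 588 CPM) to ZT24 (204 to 349 CPM) on both.

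Genes that mark the studied tissue itself passed no adjusted test. All 9 oenocyte markers had log2 fold changes above 0, with a median of 0.20, and 2 had an unadjusted p under 0.05. Among all genes tested, 4581 of 9252 lay above 0 and 3.78% were higher at that p. By time the list's median was 0.03 at ZT20, 0.13 at ZT22 and 0.41 at ZT24. Cyp4g1, the decarbonylase that completes hydrocarbon synthesis, had 41327 to 73716 CPM on the control diet (median 53347) and 53213 to 88530 CPM on the restricted diet (median 71361). The groups overlapped and the difference was 0.38 ± 0.17 (edgeR adjusted p = 0.771). CG18609, the other member with an unadjusted p under 0.05, had 0.43 ± 0.18 (adjusted p = 0.750). At ZT20 Cyp4g1 had 0.06 and CG18609 had -0.01, beside 0.64 and 1.03 at ZT24. Neither passed the edgeR test of a diet by time difference given below (adjusted p = 0.954). Of 11 fat body markers none had an unadjusted p under 0.05. Their median was 0.03, with 0.36 in replicate 1 and -0.04 in replicate 2. fit, a satiety peptide of the female fat body, had 17.3 to 120 CPM and 15.1 to 99.7 CPM (-0.62 ± 0.51).

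The 3 yolk protein genes were all below 0 and none passed. Yp3 had 17974 to 75879 CPM in control libraries (median 37661) and 13282 to 34777 CPM in restricted libraries (median 25121). Its log2 fold change was -0.60 ± 0.29 (edgeR adjusted p = 0.775), with -0.50 ± 0.29 for Yp2 and -0.11 ± 0.27 for Yp1. The median of the 3 was 0.05 in replicate 1 and -0.90 in replicate 2, and the 3 were lower in 4 of 6 pairs.

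Metabolic lists held no gene past the threshold, and their medians lay near that of all genes. In the list of glycolysis, trehalose and glycogen metabolism (21 genes, median 0.05), 2 were higher at an unadjusted p under 0.05. The share over all genes was 3.78%. Hex-C, a hexokinase of the fat body, had 192 to 500 CPM on the control diet (median 425) and 361 to 611 CPM on the restricted diet (median 518), a difference of 0.42 ± 0.17 (edgeR adjusted p = 0.744). Hex-A, the general hexokinase, had 0.24 ± 0.10 and Ldh, which turns pyruvate to lactate, had 0.42 ± 0.20. In fatty acid and triglyceride synthesis (19 genes, median 0.06), the fatty acid elongase gene Baldspot had 0.41 ± 0.18 and Lpin (lipin), a phosphatase on the way to triglyceride, had -0.33 ± 0.14, with edgeR adjusted p of 0.771 for both. In lipolysis and fatty acid oxidation (18 genes, median 0.00) and in gluconeogenesis and sugar response (13 genes, median -0.10) no gene had an unadjusted p under 0.05.

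The 64 nuclear genes of oxidative phosphorylation had a median of 0.01, and 4 were higher and none lower at an unadjusted p under 0.05. This is 4 of 64 beside 3.78% of all genes. UQCR-11, a subunit of complex III, had 72.6 to 125 CPM in control libraries (median 106) and 139 to 172 CPM in restricted libraries (median 146), without overlap. Its log2 fold change was 0.56 ± 0.14 (edgeR adjusted p = 0.533), close to equal in replicate 1 (0.60) and replicate 2 (0.55). ND-AGGG of complex I was also separated, with 87.2 to 168 CPM against 170 to 220 CPM (0.49 ± 0.14, adjusted p = 0.645). The other 2, ND-MLRQ (0.52 ± 0.14) and the complex I subunit ND-49 (0.28 ± 0.12), were higher in all 6 pairs.

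In amino acid and one-carbon metabolism (25 genes, median 0.03), 3 genes were higher and 2 lower at an unadjusted p under 0.05. Over all genes the shares were 3.78% and 2.53%. The 2 subunits of branched-chain ketoacid dehydrogenase, which commits branched-chain amino acids to breakdown, were both higher in all 6 pairs: BckdhB with 0.35 ± 0.10 (130 to 172 against 165 to 219 CPM) and BckdhA with 0.27 ± 0.11. Ahcy, which clears S-adenosylhomocysteine, was lower in all 6 pairs with 218 to 424 CPM against 152 to 334 CPM (-0.38 ± 0.11). Cth, of the transsulfuration route, was lower in all 6 pairs as well (-0.26 ± 0.07). The 4 had edgeR adjusted p between 0.645 and 0.744, and DESeq2 called Cth. Paics, an enzyme of purine synthesis on another list, had 0.29 ± 0.12.

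Growth-related lists held no gene past the threshold either. The 81 cytosolic ribosomal protein genes had a median of -0.04 and none had an unadjusted p under 0.05. Ribosome biogenesis (21 genes) had 18 members below 0, a median of -0.16 and 3 members lower at an unadjusted p under 0.05. Among all genes tested, 4671 of 9252 lay below 0 and 2.53% were lower at that p. By time the list's median was -0.16 at ZT20, 0.10 at ZT22 and -0.46 at ZT24. Fib (fibrillarin), which methylates ribosomal RNA, was lower in all 6 pairs, with -0.61 ± 0.20 (edgeR adjusted p = 0.658). Replicate 1 gave -1.01 and replicate 2 gave -0.17. Of 24 insulin and TOR genes 1 had an unadjusted p under 0.05, beside 6.31% of all genes. It was the cap-binding factor eIF4E1, with 181 to 241 CPM against 167 to 202 CPM (-0.20 ± 0.08). Neither the 33 proteasome genes (median -0.01), the 20 endoplasmic reticulum chaperones (-0.01) nor the 20 heat shock genes (0.04) had a member with an unadjusted p under 0.05.

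In humoral immunity (41 genes, median 0.10), 4 genes were higher and 1 lower at an unadjusted p under 0.05. Over all genes the shares were 3.78% and 2.53%. The named members are Bomanins, short peptides secreted by the fat body under Toll control. BomS6 had 6.16 to 17.7 CPM on the control diet (median 7.57) and 10.4 to 18.4 CPM on the restricted diet (median 15.7). It was higher in all 6 pairs, by 0.76 ± 0.14 (edgeR adjusted p = 0.286), and DESeq2 called it. BomT2 and BomS4 had 0.66 ± 0.19 and 0.52 ± 0.15 (adjusted p = 0.645 for both).

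Detoxification lists held more members above than below 0 and no gene past the threshold, beside 4581 of 9252 above 0 over all genes. Of 68 cytochrome P450 genes 51 were above 0, and 6 were higher and 4 lower at an unadjusted p under 0.05. Over all genes these shares were 3.78% and 2.53%. The median of the P450 genes was 0.17, with 0.35 in replicate 1 and -0.08 in replicate 2. Cyp12e1 (0.52 ± 0.14) and Cyp4e1 (0.41 ± 0.11) were higher and Cyp304a1 (-0.86 ± 0.34) was lower, with edgeR adjusted p from 0.642 to 0.738. Of 53 glutathione and UDP transferases 41 were above 0 and 3 were higher at an unadjusted p under 0.05, beside 3.78% of all genes. The first of these by p was Ugt37D1, a UDP-glycosyltransferase, with a median of 14.3 CPM against 18.8 CPM (0.61 ± 0.15, adjusted p = 0.529). In oxidative stress defence (20 genes, median -0.02), the peroxiredoxin gene Prx2 was lower in all 6 pairs (-0.36 ± 0.11) and the extracellular superoxide dismutase gene Sod3 had -0.72 ± 0.27, with adjusted p of 0.645 and 0.723.

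No marker of other tissues named here passed the threshold. Muscle genes (22, median 0.08) had 3 members higher at an unadjusted p under 0.05, beside 3.78% of all genes. Of the 3, TpnC73F, a troponin C, was higher in all 6 pairs (0.48 ± 0.15, edgeR adjusted p = 0.651). Among 14 hemocyte markers (median 0.11) Hml, a clotting protein of plasmatocytes, had 112 to 270 CPM against 197 to 242 CPM (0.40 ± 0.16, adjusted p = 0.741). The 12 Malpighian tubule markers had a median of 0.42, with 1.26 in replicate 1 and -1.29 in replicate 2, and none had an unadjusted p under 0.05. Of all genes tested, 3.78% were higher and 2.53% lower at an unadjusted p under 0.05. On the gut list (17 genes, median 0.43) 2 genes were higher and 1 was lower at that p. Of these, the digestive protease genes thetaTry (-5.32 ± 1.64) and zetaTry (5.25 ± 1.94) were at 0 CPM in several libraries and at most 12.9 and 5.04 CPM in any. The lysosomal mannosidase gene LManI did not overlap between diets, with 8.55 to 18.6 CPM against 18.7 to 25.2 CPM (0.68 ± 0.18, adjusted p = 0.610). The lists not yet named had medians of 0.03 for lipoproteins, lipocalins and storage proteins (10 genes), -0.01 for autophagy (20), -0.11 for juvenile hormone and ecdysone (18), -0.09 for nucleotide synthesis and DNA replication (23) and 0.23 for epidermis and cuticle (12).

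**Figure D4:**
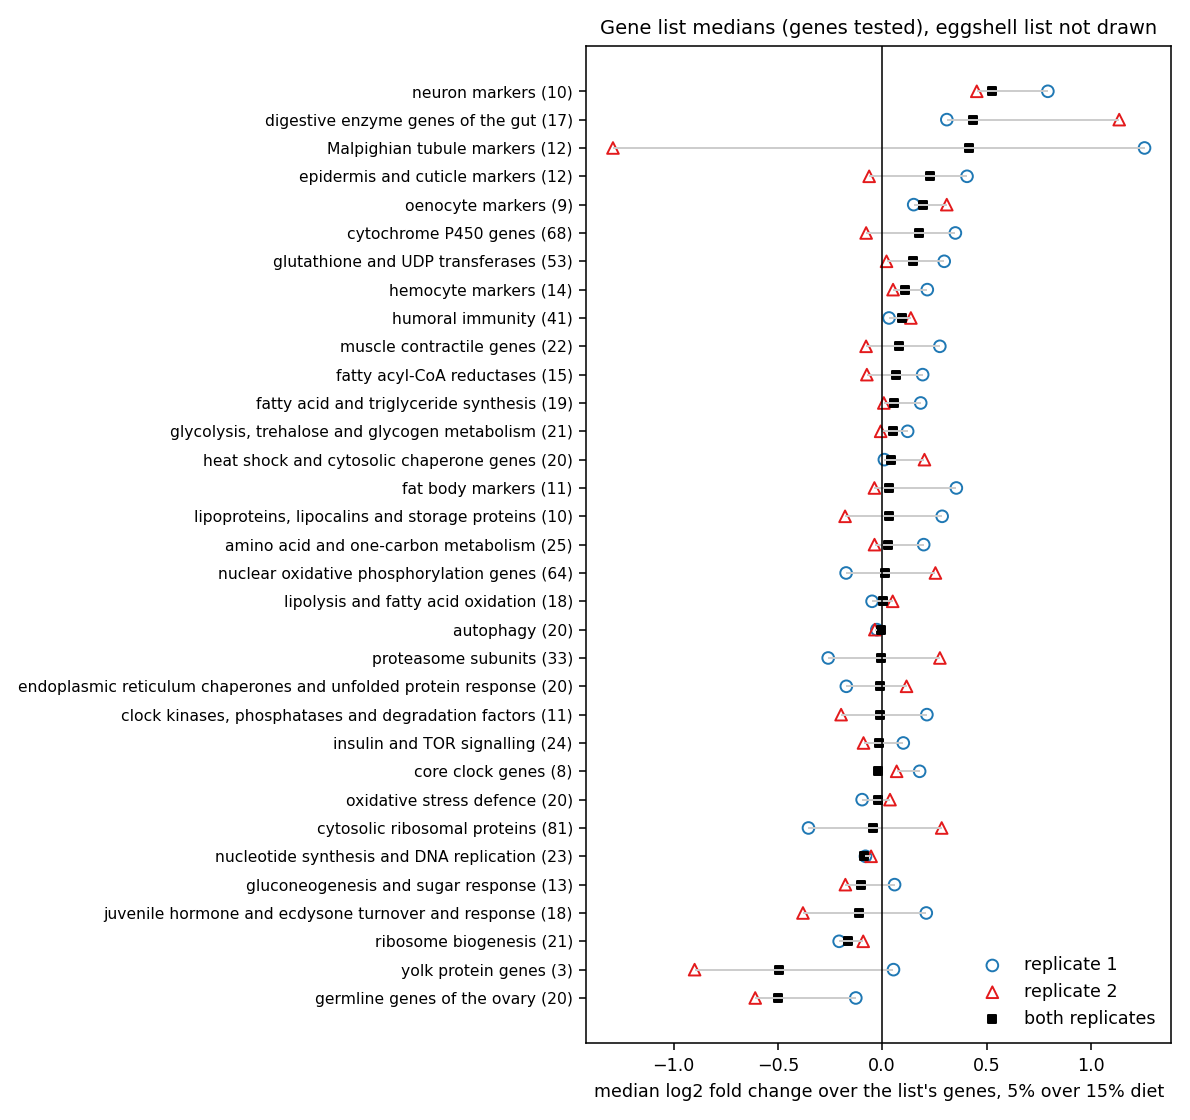
Median log2 fold change (5% over 15% diet) of 33 gene lists, with the number of genes tested in brackets; black squares give all 12 libraries, open blue circles replicate 1 and open red triangles replicate 2, and the eggshell list is not drawn. Medians of most lists lie near 0, and several fall on opposite sides of 0 in the 2 series, as for Malpighian tubule markers (1.26 and -1.29).

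The diet effect was then compared between the 2 replicate series. When each series was fitted alone, with 3 libraries per diet, the log2 fold changes had the same sign for 43.5% of the 9252 genes. Across genes, which are not independent replicates, Pearson's r between the series was 0.08 and Spearman's rho was -0.14. In the edgeR test of the difference between the series, 0 genes passed the adjusted threshold (0%), and DESeq2 called 242. With edgeR 1318 of the 9252 genes had an unadjusted p under 0.05, beside 584 (6.31%) in the test of the diet effect. The smallest p among genes of at least 10 CPM belonged to CG8112, Vps13D and rudhira, each with an edgeR adjusted p of 0.207.

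CG8112 had a log2 fold change of -0.54 in replicate 1 and 0.94 in replicate 2. Its restricted libraries had 8.78 to 10.6 CPM in replicate 1 and 33.8 to 47.4 CPM in replicate 2, while its control libraries had 13.2 to 22.9 CPM. Vps13D, of a family of lipid transfer proteins, had 0.59 and -0.56, and rudhira had 0.32 and -0.57. Lists diverged too: ribosomal proteins had a median of -0.35 in replicate 1 and 0.28 in replicate 2, proteasome genes -0.26 and 0.28, and oxidative phosphorylation genes -0.17 and 0.25. With replicate 1 alone 0 genes passed and 871 of 9252 had an unadjusted p under 0.05. With replicate 2 alone Vm32E and Vml passed and 1199 of 9252 genes had an unadjusted p under 0.05.

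**Figure D5:**
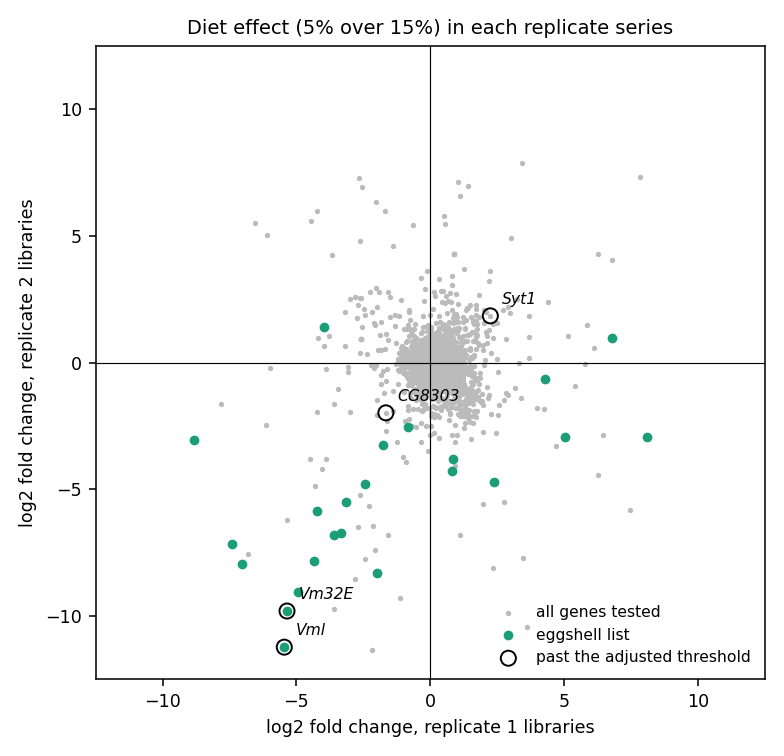
Log2 fold change (5% over 15% diet) of 9252 genes in the replicate 1 libraries (x axis) against the replicate 2 libraries (y axis), with 3 libraries per diet in each; green points are the 23 eggshell genes and open circles the 4 genes past the adjusted threshold. The cloud of all genes has no shared direction (Pearson's r = 0.08), while the vitelline membrane genes lie at the lower left.

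Within the late night the diet effect was compared between ZT20, ZT22 and ZT24. A single gene, CG17633, passed the test of a diet by time difference (0.0108% of genes, edgeR adjusted p = 7.46e-05). In all, 258 of 9252 genes had an unadjusted p under 0.05. CG17633 had 216 CPM in the ZT24 replicate 1 control library and at most 1.58 CPM in each of the other 11. It rests on that library: without it, 0 genes passed, and DESeq2 gave it an adjusted p of 1.00 while calling 11 other genes. The call was also lost without the ZT24 replicate 2 control, the ZT22 replicate 1 control, the ZT22 replicate 1 restricted or the ZT24 replicate 1 restricted library. List medians at ZT22 and ZT24 lay on opposite sides of 0 for cytochrome P450 genes (-0.18 and 0.52), for lipolysis and fatty acid oxidation (-0.38 and 0.25) and for glycolysis, trehalose and glycogen metabolism (-0.38 and 0.39). The difference of these medians was not tested.

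The diet effect of the late night was set against that of the other 9 times, in a fit of all 48 libraries. Of 10070 genes 0 passed the edgeR test of the difference (0%), 781 had an unadjusted p under 0.05, and DESeq2 called 10. The log2 fold changes of the 4 late-night genes over the other 9 times were -3.50 for Vm32E, -3.62 for Vml, -1.16 for CG8303 and 1.67 for Syt1, each in the direction seen in the late night. The late-night minus other-time difference was -3.87 for Vm32E (unadjusted p = 0.043), -4.20 for Vml (0.022), -0.72 for CG8303 (0.22) and 0.40 for Syt1 (0.40), with adjusted p of 0.630 or more. The smallest p at 10 CPM or more belonged to CG12567 (0.45), CLS, which makes cardiolipin (-0.40), and Sur-8, a scaffold of Ras signalling (0.47), each with an edgeR adjusted p of 0.630. The median of the eggshell list was -2.43 over the other 9 times beside -3.84 in the late night, and that of the germline list was -1.42 beside -0.50.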

How the data were processed

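Per gene, the authors deposited estimated counts and TPM. According to the submitters' processing notes kallisto 0.44.0 and FastQC were used. Genome build, annotation and strandedness were not given in the sources used here. Coordinates are therefore left out, and reads of overlapping or antisense genes cannot be told apart. Estimated counts, 88.2% of which were deposited as whole numbers (tolerance 0.01), were rounded. Of 14205 gene rows, 14051 had a symbol in the name table. The 12 libraries were tested with edgeR 4.0.16 in R 4.3.3: filterByExpr (minimum count 10) over diet and time, TMM, a quasi-likelihood F test with time as a factor and replicate as a block, and Benjamini-Hochberg adjustment over 9252 genes (10070 with all 48 libraries). Rows of near-identical copies, such as the 10 tested rows of ribosomal RNA, share reads, and their single values are uncertain.

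Alternatives were DESeq2 1.42.0, other size factors, no filter, no block, no ribosomal RNA and mitochondrial rows, limma 3.58.1 on log2 CPM (prior count 2) or on log2 of the authors' TPM plus 1, each series alone, each time or library left out, the fit of 48 libraries, ovary and gut covariates and a minimum fold of 1.5. Same-numbered libraries of a time deviated together across diets (correlations 0.145 to 0.350 in 3 of 3 times), and the numbers were taken as pairs. Some groups of different times and diets correlated more, such as control ZT20 with restricted ZT24 (0.51). The values therefore do not show that libraries of the same time form pairs. Over all 15 pairs of groups the correlations ran from -0.20 to 0.60, and those of the control ZT22 group with 3 groups of other times were below 0, although the block is 1 term shared by all times. The 34 gene lists (879 members found, 13 not) and the 12 libraries were chosen with earlier results of these data known. Genes were named by rule: up to 12 per direction past the threshold at 10 CPM in all 6 pairs, all core clock genes, up to 4 per list by p, and up to 6 per difference test (the 3 smallest p where none passed). Genes without a symbol (128 tested) were not named. The fits were also run on simulated counts with planted changes, as a check of the code. Those runs do not measure how reliable the calls above are. In the diet test, p-values set each difference against the residual spread of the fit, and its 7 residual degrees of freedom limit the precision. That residual also holds any difference of the diet effect between series or times.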

Additional observations from a re-analysis of the deposited data

Results flagged for a closer look

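Each gene named above was examined in the 6 libraries of each diet, and a library was marked where its gap to the nearest other exceeded the 95% critical share of the group's range for 6 values (Dixon's test). This marked 17 of 158 groups of 6, each time at the highest value. The rule marks about 1 in 20 by chance for 6 values of 1 normal distribution. The groups here held CPM of 3 times and 2 replicate series, so that share is no measure of chance for them. The ZT22 replicate 1 restricted library was marked for 4 genes: Syt1 (26.3 CPM, next 14.3), fmt (390.0 CPM, next 203), Appl (5.39 CPM, next 3.76) and CG17633 (1.58 CPM, next 0.455). The ZT24 replicate 1 restricted library was marked for Vml (10.2 CPM, next 1.66) and Vm26Ac (0.665 CPM, next 0.0438). Other restricted libraries were marked for Vm26Ab (29.2 CPM at ZT22 in replicate 2), for Cp18 and per (1.20 and 27.5 CPM at ZT20 in replicate 2) and for Baldspot (181 CPM at ZT20 in replicate 1). Among control libraries, those of ZT20 were marked for Cp16 and BomS6 (165 and 17.7 CPM in replicate 1) and for Cyp304a1 (21.1 CPM in replicate 2), that of ZT22 in replicate 2 for Cp7Fc (4.14 CPM) and zetaTry (0.0828 CPM, with the other 5 at 0), and that of ZT24 in replicate 1 for CG17633 (216 CPM, next 1.01) and thetaTry (12.9 CPM, next 3.11).

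The diet effect differed between times for CG17633 (edgeR adjusted p of the difference = 7.46e-05), a call lost without the control library at 216 CPM (adjusted p = 0.994).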

How the results depend on the processing

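The number of genes called for the late-night diet effect was 4 with other size factors, without a filter, without ribosomal RNA and mitochondrial rows and with limma on log2 CPM. It was 47 with DESeq2, 2 with limma on log2(TPM + 1), 1 at a minimum fold of 1.5, 3 with ovary and gut covariates and 0 in the fit of all 48 libraries. It was 0 with replicate 1 alone, 2 with replicate 2 alone, 0 without ZT20, 3 without ZT22 (Syt1, Cp16 and Muc12Ea), 0 without ZT24, and 0 to 5 without 1 library. The 4 genes kept their direction under all of these. Without the replicate block 2 genes were called (Syt1 and Vm32E) and the diet by time test called 0.

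DESeq2 called 242 genes for the difference between series, 11 for diet by time and 10 for the late night against other times. Leaving out 1 library gave 0, 0 to 4 and 0 calls in these tests. The cause was not tested.

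Of the other values, vri turned sign with limma on log2(TPM + 1) (-0.035), in replicate 1 (-0.063), without ZT20 (-0.054), without ZT24 (-0.045) and with the covariates (-0.21). In replicate 1 alone, fit was 0.49, Clk 0.22, cry 0.14, Yp1 0.43 and Yp2 0.054. In replicate 2 alone, per was 0.060 and Cp7Fb and Cp7Fc were both -2.94. Without ZT22, fit was 0.038, cry 0.16, Yp1 0.12 and per 0.078, and without ZT20 Clk was 0.18. With the covariates, Cp19 was 0.12, otu 0.25 and exu 0.057. Without 1 library, vri ran from -0.091 to 0.13, Clk from -0.20 to 0.11, cry from -0.17 to 0.069, per from -0.24 to 0.0079 and Yp1 from -0.30 to 0.072. In the edgeR test of 6 against 6 libraries, only large differences passed. The smallest log2 fold change in size among the 4 genes it called was -1.82 ± 0.23 for CG8303. DESeq2 also called smaller ones, such as -0.27 for Cth and -0.33 for AP-2mu. fmt, at 1.39 ± 0.24, missed the threshold (edgeR adjusted p = 0.220). Genes that were not called can therefore differ between the diets by well more than the median standard error of 0.15.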
